A study of Homo sapiens with 66 samples.

Results

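The genes described here carry glucose into the cell, break it down by glycolysis, release it as lactate, hold back the entry of pyruvate into mitochondria, or run the pentose phosphate branch. They were chosen by name, as a list of 34 symbols matched to Ensembl IDs in each count table, out of 58721 genes listed there. The cells were A375, a melanoma line that carries mutant BRAF, and poly(A) RNA was sequenced in 66 libraries that form 22 groups of 3 in 3 experiments. The Mediator experiment (42 libraries) used cells with guide 1 or guide 2 against MED12, MED19 or MED23, which are subunits of the Mediator complex that connects transcription factors with RNA polymerase II, and cells with a control guide against GFP, labelled WT. Each was given 1 µM vemurafenib, an inhibitor of mutant BRAF, or DMSO for 24 h. The SOX10 experiment (12 libraries) used cells with MED23 guide 1 that overexpressed SOX10, the same cells with an empty vector, cells with the GFP guide that overexpressed SOX10, and cells with the GFP guide and an empty vector. The HDAC3 experiment (12 libraries) used a knockout of both HDAC3 and MED23, knockout of HDAC3, knockout of MED23, and control cells. The labels name no drug for the last pair of experiments, and they give neither the promoter of the SOX10 vector nor whether a population was a pool or 1 clone. Nothing says that the 3 libraries of a group came from separate cultures, so the p-values measure only the spread between libraries of a group, and the difference between the guides of a subunit does not enter that spread.

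Glycolysis turns glucose into pyruvate, and lactate dehydrogenase turns pyruvate into lactate, which leaves the cell through monocarboxylate transporters. Pyruvate dehydrogenase kinases hold back the alternative route into the mitochondria, and the pentose phosphate pathway diverts glucose 6-phosphate into NADPH and ribose. The alpha-arrestins TXNIP and ARRDC4 restrain glucose uptake, and their genes are known targets of the glucose-responsive factors MondoA and ChREBP. In melanoma with mutant BRAF, ERK signalling is known to favour glucose uptake and lactate output.

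Sequencing depth lay between 24.87 and 211.79 M counts per library (M, 1000000) over the 3 experiments, with a median of 112.65 M in the Mediator, 27.71 M in the SOX10 and 68.52 M in the HDAC3 experiment. Levels are given as CPM, counts per 1000000 of the TMM-scaled library size. All 34 members passed the filter on low counts in each, among 27453, 18009 and 21139 genes tested. The targeted genes were lower in their knockouts: MED12 by 2.04, MED19 by 1.05 and MED23 by 1.12 on the log2 scale in DMSO, and HDAC3 by 0.97 in the HDAC3 knockout. DUSP6, a phosphatase induced by ERK, was lower by 2.87 with vemurafenib in control-guide cells. The melanocyte pigment genes MLANA, PMEL and TYR had medians of 1.51, 0.881 and 0 CPM in the Mediator experiment, while the melanoma-expressed AXL and SOX10 had 301 and 352. The pigment gene DCT had a median of 2.47 there but ranged from 0.0099 to 863 CPM between libraries, and MITF had a median of 75.9. Of 15 markers of blood, epithelial, endothelial, liver and muscle cells, 14, 13 and 13 had a median under 1 CPM in the Mediator, SOX10 and HDAC3 experiments. SOX10 itself was lower by 2.68 in MED12, 0.70 in MED19 and 1.43 in MED23 knockout cells in DMSO, and its part in the changes below was not tested.

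Compared per length of exon, the members spanned a wide range of levels in control-guide cells in DMSO, given here as counts per kilobase of exon scaled to a sum of 1000000 over all genes (TPM-like, mean ± SD, n = 3). GAPDH, the dehydrogenase of the lower pathway, stood at 5737 ± 120, the enolase gene ENO1 at 3460 ± 57.4, the pyruvate kinase gene PKM at 2624 ± 37.7 and LDHA, which encodes the muscle-type subunit of lactate dehydrogenase, at 1335 ± 15.6. Among hexokinases HK1 had 142 ± 3.49 and HK2 85.2 ± 1.85, and among glucose transporters SLC2A1 had 142 ± 4.76 and SLC2A3 45.2 ± 0.669. The dehydrogenase kinases ran in the order PDK4 at 24.1 ± 1.19, PDK3 at 19.5 ± 1.04, PDK2 at 11.6 ± 0.400 and PDK1 at 5.16 ± 0.0680. Gaps between neighbours were larger than the SDs, but PDK3 (23.4) came above PDK4 (22.2) when the longest transcript set the length. The lactate transporter SLC16A1 had 139 ± 1.95, against 3.82 ± 0.191 for SLC16A3, and TKTL1, a transketolase-like gene, was lowest of all members at 0.366 ± 0.0903. Counts of several members are uncertain. The annotation places 68% of the exon bases of ALDOA and 56.2% of those of LDHB under another gene on the same strand. A share of 54.6% of PDK2 exon bases lies opposite SAMD14, 8.65% of those of PFKM opposite SENP1 and 6.5% of those of SLC16A3 opposite CSNK1D. Other genes also lie opposite 19% of GAPDH and 14.5% of ALDOC exon bases. Whether reads were counted by strand is not given in the sources used here. GAPDH has 62 named pseudogenes and PGAM1 has 13, and SLC2A3 has the near-identical copy SLC2A14.

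The promoters of 5 members that the results below turn on are shown here because they differ in the motifs they hold. Each is a RefSeq window of 300 bases on GRCh38.p14, from 250 bases before the start to 50 after it, written 5′ to 3′ on the gene's strand. TXNIP and LDHA have 2 windows each, of which only the first listed is printed. Capitals mark the letters of 4 motifs on either strand: CACGTG (E-box), ACGTG and GCGTG (core letters read by HIF), and the carbohydrate response element, searched as CACGNG followed by 5 bases of any kind and CACGNG again, where ACGTG is part of every CACGTG. TXNIP (ENSG00000265972) lies on the minus strand, with its window at chr1:145996530-145996829. ARRDC4 (ENSG00000140450) is on the plus strand with its window at chr15:97960453-97960752, and LDHA (ENSG00000134333) on the plus strand at chr11:18394313-18394612. PFKFB4 (ENSG00000114268) is on the minus strand at chr3:48556754-48557053, and ALDOC (ENSG00000109107) on the minus strand at chr17:28576846-28577145.
TXNIP: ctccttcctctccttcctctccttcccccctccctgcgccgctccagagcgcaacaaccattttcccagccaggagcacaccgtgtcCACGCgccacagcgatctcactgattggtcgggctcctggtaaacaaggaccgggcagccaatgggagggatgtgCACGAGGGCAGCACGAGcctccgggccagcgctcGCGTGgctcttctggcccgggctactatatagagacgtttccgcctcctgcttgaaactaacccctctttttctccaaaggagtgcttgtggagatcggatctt
ARRDC4: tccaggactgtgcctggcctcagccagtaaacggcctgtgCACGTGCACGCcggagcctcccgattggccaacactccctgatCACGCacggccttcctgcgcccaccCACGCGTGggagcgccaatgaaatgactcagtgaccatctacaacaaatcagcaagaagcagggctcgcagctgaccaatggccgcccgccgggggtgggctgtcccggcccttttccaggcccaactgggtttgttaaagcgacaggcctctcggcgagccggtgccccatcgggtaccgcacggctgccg
LDHA: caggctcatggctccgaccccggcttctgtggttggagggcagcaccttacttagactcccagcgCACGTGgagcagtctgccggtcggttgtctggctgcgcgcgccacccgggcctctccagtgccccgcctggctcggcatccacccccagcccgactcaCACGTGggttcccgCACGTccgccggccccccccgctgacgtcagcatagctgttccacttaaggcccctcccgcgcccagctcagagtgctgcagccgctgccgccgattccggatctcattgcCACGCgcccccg
PFKFB4: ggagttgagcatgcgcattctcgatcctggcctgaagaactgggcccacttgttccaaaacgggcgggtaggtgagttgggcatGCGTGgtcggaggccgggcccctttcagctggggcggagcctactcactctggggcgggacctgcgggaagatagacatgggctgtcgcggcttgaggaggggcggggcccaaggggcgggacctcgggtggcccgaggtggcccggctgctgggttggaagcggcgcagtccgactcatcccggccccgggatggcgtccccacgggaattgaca
ALDOC: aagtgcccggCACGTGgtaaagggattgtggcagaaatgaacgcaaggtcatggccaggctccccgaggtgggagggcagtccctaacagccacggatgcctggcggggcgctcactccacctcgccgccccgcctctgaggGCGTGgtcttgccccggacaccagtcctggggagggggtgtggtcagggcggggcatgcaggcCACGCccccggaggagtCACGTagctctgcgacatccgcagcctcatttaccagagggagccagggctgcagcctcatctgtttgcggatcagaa
The letter pattern searched for the carbohydrate response element was found in TXNIP, at bases 163 to 179 of its window. No other of the 31 members that had a window held it. This pattern was present in 20 of 27305 genes (0.073%). CACGTG was present in 8 of the 31 members, namely HK2, PFKFB3, ALDOA, ALDOC, GAPDH, LDHA, PDK2 and ARRDC4, against 8.78% of all genes. ACGTG was present in 19 and GCGTG in 20 of the 31, against 24.9% and 40.6% of all genes. The members have more annotated starts than most genes, and counted by window CACGTG was in 8, ACGTG in 23 and GCGTG in 24 of their 61 windows, against 7.26%, 21.4% and 36.5% of all windows. LDHA carried CACGTG at 2 places and ARRDC4 at 1, whereas the PFKFB4 window held a single GCGTG. The windows not printed held an ACGTG for TXNIP and a GCGTG for LDHA. Windows of SLC2A3, PFKFB2 and SLC16A1 are not analysed here. A match describes letters in this window and not a bound site.

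Vemurafenib in control-guide cells lowered most of the pathway and raised its arrestins. At an adjusted p under 0.05 (edgeR quasi-likelihood test, Benjamini-Hochberg over all genes tested), 24 of 34 members fell and 8 rose, where 66.2% of all genes tested were called in either direction and 30.3% were called lower and 35.8% higher. The falls reached 1.5-fold for 14 members, against 18.3% of all genes, and the rises for 4, against 25.5%. All 6 upper glycolysis members and all 4 members for lactate production and transport were called lower, but PFKL, PFKM and SLC16A3 were not with total-count scaling. The median log2 fold change of the members was -0.499, against 0.106 over all genes. Summed over the members, the level was 12222 ± 199 CPM with vemurafenib and 19777 ± 180 with DMSO (mean ± SD, n = 3), a ratio of 0.618, which was 0.718 without GAPDH, PKM, ENO1, LDHA and ALDOA. Scaling by total counts alone moved the median of all genes from 0.106 to 0.298 and gave 12 higher and 19 lower members. In bulk RNA, fewer cells and less RNA per cell cannot be told apart.

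**Figure D1:**
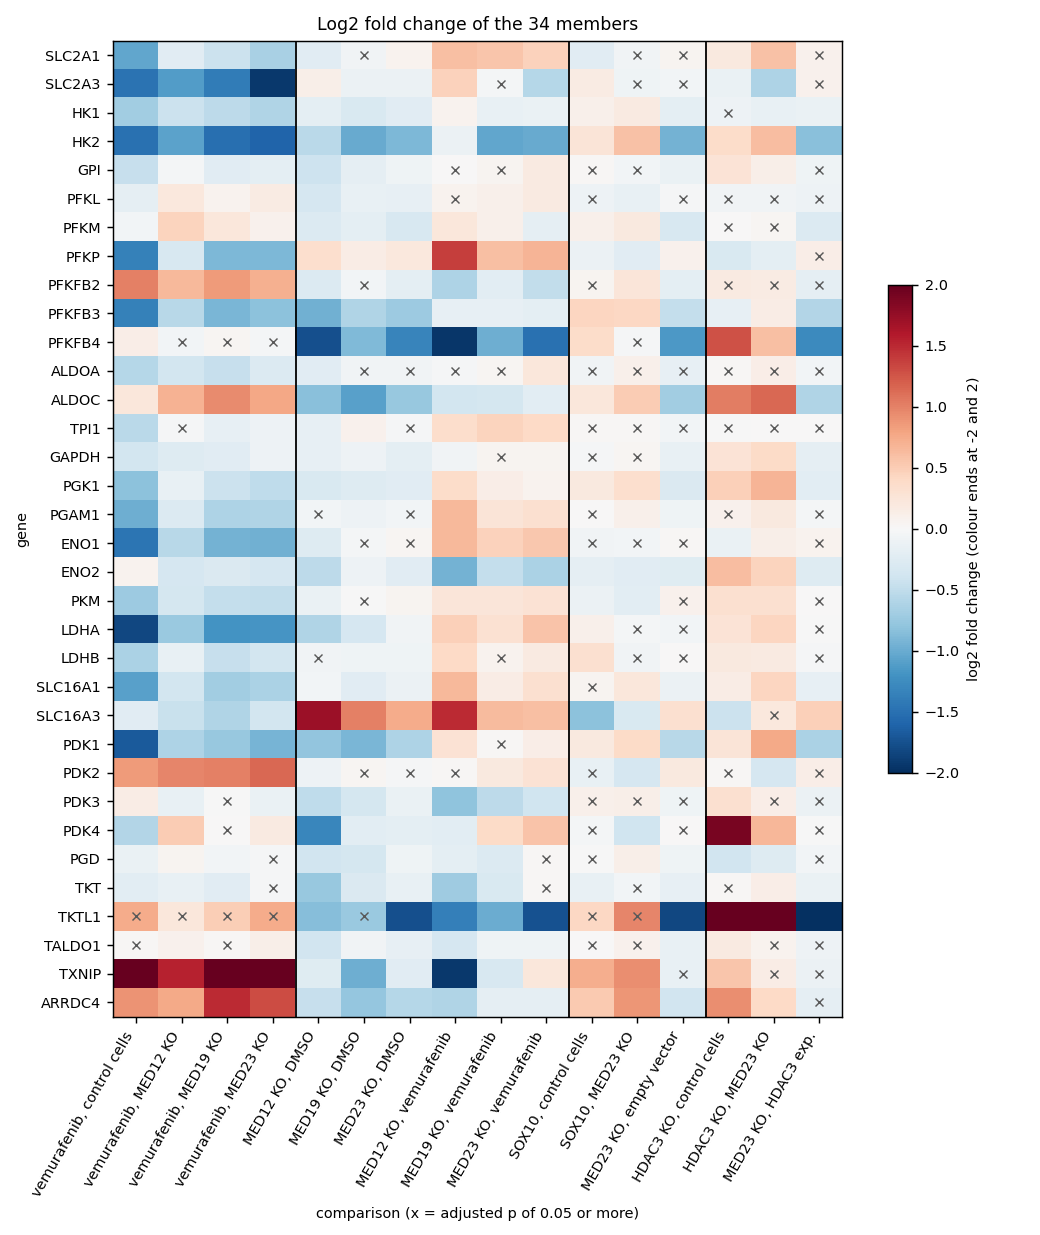
Log2 fold change of each of the 34 members (rows, by pathway step) in 16 comparisons (columns), each drug, loss or overexpression over its control. Red is higher, blue is lower, the colours end at -2 and 2, and a cross marks an adjusted p of 0.05 or more. In the vemurafenib column of control-guide cells 24 members are blue, PFKFB2, PDK2, TXNIP and ARRDC4 are red, PFKFB4, ALDOC, ENO2 and PDK3 are pale red, and TALDO1 and TKTL1 are crossed, and PFKFB4 is blue in every Mediator-loss column.

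Both glucose transporters fell with the drug. SLC2A3, a high-affinity transporter, had 25.2, 26.1 and 25.7 CPM with vemurafenib and 71.4, 70.3 and 72.0 with DMSO. SLC2A1, the broadly expressed transporter, had 111, 106 and 113 with vemurafenib and 222, 235 and 224 with DMSO. The ranges of the groups did not overlap for either, and the log2 fold changes were -1.47 ± 0.041 (adjusted p = 5.1e-34) and -1.04 ± 0.034 (adjusted p = 7.1e-31). Uptake is followed by hexokinase, which traps glucose as glucose 6-phosphate. HK2, the inducible isoform, had 74.1, 70.1 and 73.1 CPM with vemurafenib and 201, 204 and 207 with DMSO. It was 2.81-fold lower (-1.49 ± 0.034, adjusted p = 1.1e-37), whereas the housekeeping isoform HK1 changed by -0.69 ± 0.026. GPI, the isomerase that follows, changed by -0.46 ± 0.025.

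The 3 phosphofructokinase isoforms of the committed step fell unequally. PFKP, the platelet-type isoform, had 57.1, 53.9 and 56.2 CPM with vemurafenib and 138, 146 and 144 with DMSO, a change of -1.36 ± 0.038 (adjusted p = 9.1e-34). PFKL and PFKM, the liver-type and muscle-type isoforms, changed by only -0.18 and -0.06, and by 0.01 (adjusted p = 0.83) and 0.13 (adjusted p = 8.3e-06) with total-count scaling. The PFKM call was also lost without DMSO replicate 2 or 3 or vemurafenib replicate 1 or 2 (adjusted p = 0.056 to 0.11), and with no filter on low counts (adjusted p = 0.12). SENP1, which overlaps PFKM on the opposite strand, changed by -0.61 in the same comparison. The bifunctional enzymes that set fructose 2,6-bisphosphate, the activator of phosphofructokinase, moved in different directions. PFKFB3, the isoform with the highest kinase activity, had 67.1, 64.8 and 69.2 CPM with vemurafenib and 169, 174 and 172 with DMSO (-1.36 ± 0.036, adjusted p = 7.1e-35). PFKFB2, the heart-type isoform, had 57.2, 58.5 and 58.2 with vemurafenib and 28.8, 28.9 and 29.2 with DMSO (1.00 ± 0.042, adjusted p = 1.3e-26). The groups were fully apart for both, with PFKFB3 lower and PFKFB2 higher under the drug, and PFKFB4 rose slightly (0.14 ± 0.038).

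In the lower pathway 7 of 9 members fell and 2 rose. ENO1, the ubiquitous enolase, had 1216, 1218 and 1216 CPM with vemurafenib and 3313, 3388 and 3346 with DMSO, and was 2.75-fold lower (adjusted p = 1.9e-43). Phosphoglycerate mutase PGAM1 and phosphoglycerate kinase PGK1 changed by -0.98 ± 0.03 and -0.82 ± 0.023, PKM by -0.73 ± 0.02, GAPDH by -0.36 ± 0.024 and the triose phosphate isomerase TPI1 by -0.54 ± 0.024. The rises were small and concerned the aldolase ALDOC (0.22 ± 0.044) and the neuronal enolase ENO2 (0.08 ± 0.032). The ENO2 call was lost without any of the 6 libraries compared other than vemurafenib replicate 3 (adjusted p = 0.067 to 0.15). It was also lost with DESeq2 size factors (adjusted p = 0.11), DESeq2's Wald test (adjusted p = 0.077), no filter on low counts (adjusted p = 0.21) and only the groups compared (0.03, adjusted p = 0.44). ALDOA, the main aldolase, changed by -0.57 ± 0.038, with the overlap of its exons as a limit.

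LDHA, which turns pyruvate into lactate, fell most of all members. It had 452, 450 and 446 CPM with vemurafenib and 1629, 1579 and 1579 with DMSO, and was 3.55-fold lower (-1.83 ± 0.026, adjusted p = 5.2e-46). LDHB, the heart-type subunit whose exons are shared with another gene, changed by -0.64 ± 0.042. SLC16A1, the transporter that moves lactate with a proton in either direction, had 123, 122 and 125 with vemurafenib and 268, 261 and 257 with DMSO (-1.08 ± 0.029). SLC16A3, the export-type transporter, was near 7 CPM with the drug and changed little (-0.23 ± 0.077), a call that was lost with total-count scaling (-0.04, adjusted p = 0.65). Of the dehydrogenase kinases, PDK1, a known HIF target, had 9.46, 8.98 and 9.17 CPM with vemurafenib and 29.6, 30.0 and 29.2 with DMSO. The change was -1.69 ± 0.057 (adjusted p = 3.2e-30), and every drug-treated library was below every DMSO library. PDK4, a kinase known to be raised in fasting, changed by -0.58 ± 0.054 and PDK3 by 0.15 ± 0.059. The PDK3 call was lost without DMSO replicate 1 or 2 or vemurafenib replicate 1 or 3 (adjusted p = 0.088 to 0.12), with DESeq2 size factors (adjusted p = 0.053) and with only the groups compared (adjusted p = 0.082). PDK2 was 1.8-fold higher, but SAMD14 on the opposite strand changed by 1.92 in the same comparison, and the contributions of these genes cannot be told apart.

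The pentose phosphate members TKT, PGD and TALDO1 scarcely moved. TKT, the transketolase, and PGD, the enzyme that oxidises 6-phosphogluconate, changed by -0.21 ± 0.03 and -0.13 ± 0.026. With total-count scaling TKT was not called (-0.01, adjusted p = 0.66) and PGD was higher (0.06, adjusted p = 0.021). TALDO1, the transaldolase, changed by 0.03 ± 0.028 and was not called. TKTL1 had 0.698, 0.839 and 0.590 CPM with vemurafenib and 0.459, 0.511 and 0.307 with DMSO (adjusted p = 0.095), levels too low for a firm reading.

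TXNIP moved furthest of all members and upwards. It had 261, 257 and 262 CPM with vemurafenib and 27.7, 28.1 and 28.0 with DMSO, so every drug-treated library was far above every DMSO library. It was 9.3-fold higher (3.22 ± 0.06, adjusted p = 6.4e-41). ARRDC4 had 17.5, 19.3 and 17.3 CPM with vemurafenib and 9.20, 9.52 and 10.1 with DMSO, a smaller rise of 0.90 ± 0.061 (adjusted p = 2.0e-18). The TXNIP window printed above holds the letter pattern searched for the carbohydrate response element and the ARRDC4 window does not. Looser forms of the element were not searched, and whether the pattern bears on the size of either rise was not tested.

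Genes next to the members in metabolism were read from 7 lists. Over all genes, 30.3% were called lower and 35.8% higher with the drug. Genes for the entry of pyruvate into mitochondria were mostly lower, 8 of 10 with 1 higher and a median of -0.317, against 0.106 over all genes. PDP1 and PDP2, phosphatases that reactivate pyruvate dehydrogenase, changed by -1.63 ± 0.033 and -0.90 ± 0.032, and DLAT, a subunit of the dehydrogenase complex, by -0.94 ± 0.029. Other sugar and lactate transporters split into 6 higher and 2 lower of 10, with SLC2A12 at 3.11 ± 0.14, SLC2A10 at 2.33 ± 0.1 and the lactate transporter SLC16A7 at -1.49 ± 0.054. Other glycolysis enzymes gave 7 higher and 2 lower of 12, with HKDC1, a hexokinase family gene, at 2.44 ± 0.055 and the muscle enolase ENO3 at 1.49 ± 0.06. Other pentose phosphate and ribose genes gave 5 higher and 4 lower of 10. Among these the phosphoribosyl pyrophosphate synthetases PRPS2 and PRPS1 changed by -1.77 ± 0.039 and -1.27 ± 0.038, and H6PD, which starts the pathway in the endoplasmic reticulum, by 1.28 ± 0.032.

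Genes of gluconeogenesis had 2 higher and 2 lower of 6, and the HIF list outside glycolysis 9 higher and 11 lower of 22. Among regulators, 7 of 13 were higher and 5 lower. Over all genes tested, 66.2% were called in this comparison, 35.8% higher and 30.3% lower. MYC, a known activator of glycolysis genes, changed by -3.26 ± 0.1, and PPARGC1A, a coactivator of mitochondrial genes, by 2.64 ± 0.12 (adjusted p = 1.5e-24). FOXO3, a factor held back by growth factor signalling, changed by 1.26 ± 0.035.

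Loss of a Mediator subunit in DMSO lowered most members by small amounts. The comparisons share the same control-guide libraries, so their values are given side by side. In MED12 knockout cells 29 members fell and 3 rose, where 54.9% of all genes were called and 27% were called lower. In MED19 knockout cells 24 fell and 3 rose, against 40.6% called and 20.2% called lower, and in MED23 knockout cells 25 fell and 4 rose, against 36.9% and 18.5%. The medians of the members were -0.288, -0.186 and -0.157. Falls of at least 1.5-fold concerned 8, 7 and 6 members, against 9.42%, 5.1% and 5.1% of all genes, and 1 member rose that far in each, against 14.5%, 6.66% and 6.31%. The split under total-count scaling was 3 higher and 26 lower for MED12, 5 and 18 for MED19, and 5 and 19 for MED23.

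PFKFB4, an isoform known to respond to hypoxia, was the member most lowered by loss of MED12, and among members above 1 CPM by loss of MED23. It had 35.7, 37.2 and 34.7 CPM with MED12 guide 1 and 29.8, 32.2 and 31.0 with guide 2, 54.2, 55.0 and 54.4 with MED19 guide 1 and 68.2, 70.8 and 69.5 with guide 2. With MED23 guide 1 it had 47.5, 42.7 and 46.5 and with guide 2 42.4, 45.8 and 46.0, and with the control guide 108, 116 and 115. All knockout libraries lay below all control libraries, and MED12 lay lowest. The log2 fold changes were -1.76 ± 0.032, -0.88 ± 0.032 and -1.32 ± 0.032 for MED12, MED19 and MED23 (adjusted p = 4.9e-41, 1.0e-27 and 3.4e-35).

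HK2 followed another order. It ranged over 136 to 144 CPM in MED12, 92.7 to 109 in MED19 and 106 to 113 in MED23 knockout cells, and over 201 to 207 with the control guide. The changes were -0.54 ± 0.028, -1.01 ± 0.028 and -0.89 ± 0.028 for MED12, MED19 and MED23. PFKFB3 was lower in each (-0.96, -0.60 and -0.73), as was PDK1 (-0.79, -0.91 and -0.62) and ALDOC (-0.84, -1.08 and -0.76). For each of these 5 genes the knockout libraries lay apart from the control libraries.

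SLC16A3 rose more than any other member with each loss. It had 26.6, 28.7 and 25.5 CPM with MED12 guide 1 and 26.8, 25.5 and 23.7 with guide 2, 13.2 to 18.8 over the MED19 and 11.8 to 14.3 over the MED23 libraries, and 7.68, 8.38 and 7.82 with the control guide. The lowest knockout library was above the highest control library in each case. The changes were 1.71 ± 0.066, 1.00 ± 0.066 and 0.74 ± 0.065 (adjusted p = 1.4e-27, 4.5e-18 and 1.2e-13). CSNK1D, which overlaps it on the opposite strand, changed by 0.39, 0.24 and 0.21 in the same comparisons. PFKP also rose in each, by 0.34, 0.14 and 0.21.

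The subunits were also set against each other directly. In DMSO 30 members differed between MED12 and MED19 loss, where 46.8% of all genes were called, 28 between MED12 and MED23 loss (50.8%) and 26 between MED19 and MED23 loss (33.7%). PDK4 had 15.0, 14.8 and 15.1 CPM with MED12 guide 1 and 12.3, 14.2 and 13.6 with guide 2, and 35.4, 32.8 and 36.0 with the control guide. The change in MED12 knockout cells was -1.30 ± 0.046 (adjusted p = 5.1e-29), compared with -0.21 for MED19 and -0.19 for MED23, and MED12 differed from MED23 by -1.10 (adjusted p = 1.5e-28). TKT, the transketolase, likewise changed by -0.76 with MED12, -0.29 with MED19 and -0.15 with MED23. LDHA changed by -0.61, -0.33 and -0.07, of which the MED23 value was not called without control-guide DMSO replicate 1 (-0.055, adjusted p = 0.083), with guide 1 alone (-0.05, adjusted p = 0.17) or with total-count scaling (-0.03, adjusted p = 0.24). TXNIP was at 13.2 to 15.2 CPM in MED19 knockout cells and 27.7 to 28.1 in control-guide cells, a change of -0.97 ± 0.054 (adjusted p = 1.2e-20), while it changed by -0.25 with MED12 and -0.22 with MED23. ARRDC4 changed by -0.46, -0.77 and -0.58. PGK1 changed by -0.31, -0.26 and -0.23, and HK1 by -0.19, -0.31 and -0.22.

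**Figure D2:**
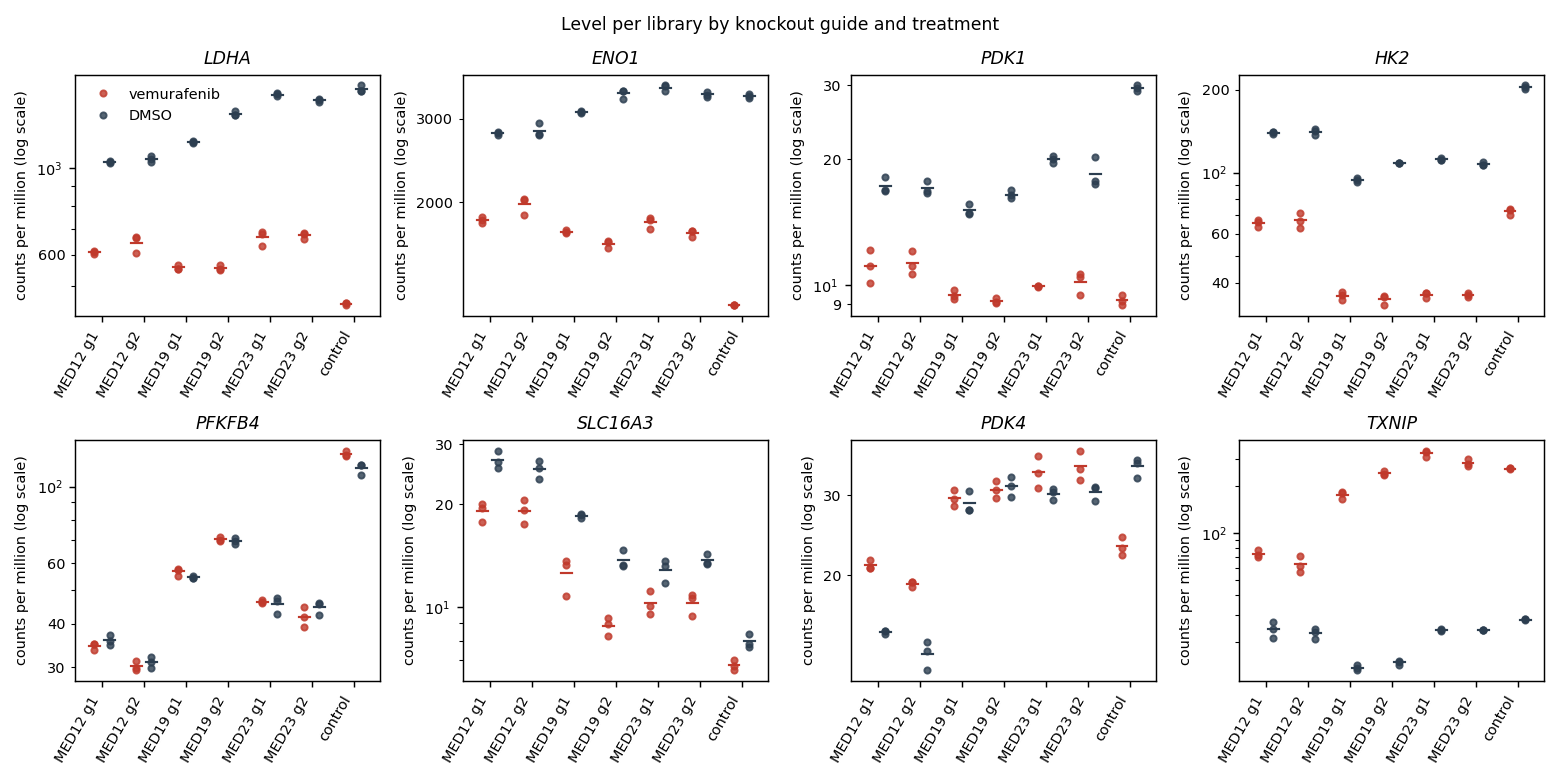
CPM in every library (points, log scale; short lines are group means) for 8 members, by guide (g1 and g2) and treatment, with the control guide at the right of each panel. LDHA, ENO1, PDK1 and HK2 are lower with vemurafenib (red) than with DMSO (dark) in every genotype, PFKFB4 is lower in every knockout, and TXNIP with vemurafenib is 56.5 to 78.3 in MED12 knockout cells and 257 to 262 in control-guide cells.

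Most members responded to the drug by a different amount after loss of a subunit, which was tested by the interaction of loss and vemurafenib. A positive interaction means a smaller fall or a larger rise with the drug in the knockout. The 3 interactions share the control-guide libraries. The interaction was positive for 24 members and negative for 6 with MED12, where 49% of all genes were called and 24.9% were positive. With MED19 it was positive for 22 and negative for 3 (32.6% of all genes called and 17.4% positive), and with MED23 for 25 and 6 (34.8% and 18.5%). The medians of the members were 0.384, 0.242 and 0.286. Vemurafenib lowered 21 members and raised 10 in MED12 knockout cells (63.2% of all genes called), lowered 22 and raised 7 in MED19 (70.3%) and lowered 21 and raised 9 in MED23 knockout cells (69.5%). The medians of the members were -0.155, -0.26 and -0.233 in these cells, and -0.499 in control-guide cells. With total-count scaling the lowered and raised members numbered 16 and 13 in MED12, 20 and 13 in MED19, and 17 and 15 in MED23 knockout cells, and the medians of all genes moved to 0.163, 0.256 and 0.251.

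LDHA had a positive interaction with each subunit. Under vemurafenib it had 604, 614 and 610 CPM with MED12 guide 1, 661, 607 and 666 with MED12 guide 2, 547 to 565 over the MED19 libraries and 632 to 686 over the MED23 libraries, and 452, 450 and 446 with the control guide. Every knockout library was above every control-guide library. The change with the drug was -0.74 in MED12, -1.19 in MED19, -1.18 in MED23 knockout cells and -1.83 in control-guide cells. The interactions were 1.09 ± 0.031, 0.64 ± 0.031 and 0.64 ± 0.031 (adjusted p = 1.0e-32, 9.8e-23 and 4.1e-23). ENO1 gave 0.90, 0.52 and 0.50, and SLC2A1 gave 0.82, 0.61 and 0.39.

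PFKP under vemurafenib was at 133 to 152 CPM in MED12, 77.7 to 93.7 in MED19 and 83.8 to 96.0 in MED23 knockout cells and at 53.9 to 57.1 in control-guide cells. It was 2.6-fold higher with MED12 loss under the drug (1.38 ± 0.034, adjusted p = 1.2e-35), and the interaction with MED12 was 1.04 ± 0.045. PDK1, lower in the knockouts in DMSO, overlapped control under the drug with loss of MED19 or MED23. With loss of MED12 every library was above every control-guide library. Its levels under vemurafenib were 10.1 to 12.2 in MED12, 9.05 to 9.71 in MED19, 9.45 to 10.6 in MED23 and 8.98 to 9.46 in control-guide cells, and its interactions were 1.07, 0.93 and 0.75. PDK4 rose with the drug in MED12 knockout cells (0.51 ± 0.04) and fell in control-guide cells (-0.58 ± 0.054), an interaction of 1.09 ± 0.067 (adjusted p = 2.2e-19).

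HK2 fell with the drug in every genotype. Vemurafenib changed it by -1.07 in MED12, -1.51 in MED19, -1.60 in MED23 knockout cells and -1.49 in control-guide cells, and its interaction with MED12 was 0.42 ± 0.04 (adjusted p = 1.2e-12). HK2 stood at 33.2 to 37.0 CPM in MED19 and 35.1 to 36.7 in MED23 knockout cells under the drug, against 70.1 to 74.1 in control-guide cells. PFKFB4 changed with the drug by -0.05, 0.04 and -0.03 in the knockouts, none of them called, or by 0.08 (adjusted p = 0.0096) in MED12 and 0.14 (adjusted p = 1.8e-05) in MED23 knockout cells with total-count scaling, and was 3.86-fold lower with MED12 loss under vemurafenib. SLC2A3 changed by -1.93 in MED23 knockout and -1.47 in control-guide cells, with a negative interaction of -0.45 ± 0.05.

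TXNIP gave opposite interactions. Under vemurafenib it had 73.0, 78.3 and 70.3 CPM with MED12 guide 1 and 56.5, 71.3 and 61.3 with guide 2, 183, 180 and 167 with MED19 guide 1 and 238, 241 and 252 with guide 2. With MED23 guide 1 it had 334, 311 and 338 and with guide 2 299, 277 and 271, and with the control guide 261, 257 and 262. The MED12 libraries were all far below control, the MED19 libraries less so, and the MED23 libraries above. The rise with the drug was 1.53 in MED12, 3.86 in MED19 and 3.66 in MED23 knockout cells and 3.22 in control-guide cells. The interactions were -1.68 ± 0.071 (adjusted p = 9.6e-26), 0.65 ± 0.072 (adjusted p = 2.6e-10) and 0.45 ± 0.07. Under the drug, loss of MED12 gave -1.93 ± 0.045 (adjusted p = 1.2e-36), whereas the changes with MED19 (-0.32) and MED23 (0.23) were not called with guide 2 alone (-0.09, adjusted p = 0.19, and 0.12, adjusted p = 0.073). ARRDC4 rose with the drug by 0.76, 1.49 and 1.31 in the knockouts and 0.90 in control-guide cells, and its interaction with MED12 was not called (-0.14, adjusted p = 0.12).

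Under vemurafenib the members split about evenly between directions with loss of MED12 or MED19. Loss of MED12 raised 15 members and lowered 15 under the drug (62.2% of all genes called), loss of MED19 raised 14 and lowered 14 (43.7%), and loss of MED23 raised 19 and lowered 13 (47.3%). The medians of the members were 0.012, 0.045 and 0.103. Set against each other under the drug, MED12 and MED19 loss differed in 28 members (55.3% of all genes called), MED12 and MED23 loss in 32 (55.7%), and MED19 and MED23 loss in 26 (36.5%). Summed levels under the drug were 13098 ± 160 and 13640 ± 492 CPM with MED12 guides 1 and 2, 13240 ± 84 and 13556 ± 140 with MED19, and 14252 ± 272 and 13727 ± 236 with MED23, against 12222 ± 199 with the control guide (mean ± SD, n = 3). In DMSO they were 16597 ± 132 and 16584 ± 387 with MED12, 17373 ± 72.6 and 19052 ± 295 with MED19, 18747 ± 359 and 18439 ± 240 with MED23, and 19777 ± 180 with the control guide. By this sum the knockouts lay above the control guide under the drug and below it in DMSO. Without GAPDH, PKM, ENO1, LDHA and ALDOA, the control guide had 4384 ± 78.6 under the drug. MED12 guides 1 and 2 then had 4395 ± 55.6 and 4497 ± 136, and MED19 guides 4394 ± 64 and 4524 ± 41.1. MED23 guides had 4799 ± 82.7 and 4637 ± 89. As a share of total counts in DMSO, MED19 guide 2 (1.779 ± 0.0252%) was within its SD of the control guide (1.801 ± 0.0162%).

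Genes of pyruvate entry also had mostly positive interactions with MED12, 9 of 10 with 1 negative, where 49% of all genes were called and 24.9% were positive. The median of the list was 0.281, against -0.037 over all genes. PDP1 fell by 1.04 with MED12 loss in DMSO and its interaction was 1.30 ± 0.04. Among regulators MYC changed by -1.69 ± 0.072 with MED12 and -1.33 ± 0.072 with MED23 in DMSO, with an interaction of 2.64 ± 0.12 for MED12. HKDC1, which rose with the drug in control-guide cells, had an interaction of -2.87 ± 0.068 and a change of -3.29 ± 0.045 with MED12 loss under the drug.

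**Figure D3:**
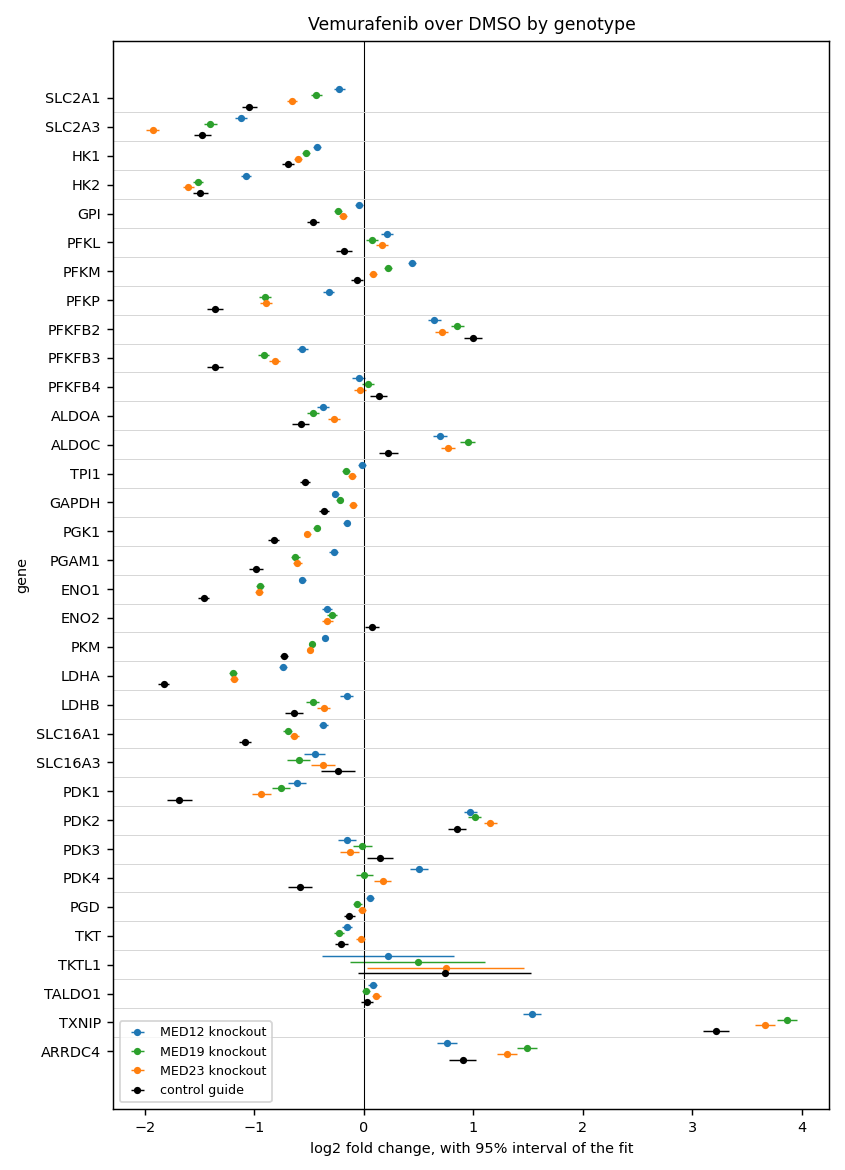
Log2 fold change of vemurafenib over DMSO for each member (rows) in MED12 (blue), MED19 (green) and MED23 (orange) knockout cells and in control-guide cells (black), with the 95% interval of the fit. The black points of LDHA, ENO1, PFKP, PDK1 and SLC2A1 lie left of the coloured points, and the blue point of TXNIP at 1.53 lies left of the black one at 3.22.

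Loss of MED23 was measured in all 3 tables, each with control libraries of its own. Of the 34 members, 13 fell in all 3 tables, 1 rose in all 3 and 0 were called in opposite directions, where 11.2% of 17953 genes tested in all 3 fell and 11.8% rose throughout. The 13 were HK1, HK2, PFKM, PFKFB3, PFKFB4, ALDOC, GAPDH, PGK1, ENO2, SLC16A1, PDK1, TKT and TKTL1, and the riser was SLC16A3. The fall of TKTL1 rests on few counts. Summed over a group with empty vector, it had 11 counts in MED23 knockout and 39 in control cells. In the HDAC3 experiment it had 14 in the MED23 knockout and 156 in control cells. In the SOX10 experiment 19 members fell and 3 rose with MED23 loss (43.4% of all genes called), and in the HDAC3 experiment 13 fell and 1 rose (24.3%, or 12% called lower). The split in the HDAC3 experiment was 3 higher and 11 lower with total-count scaling, and 3 higher and 15 lower with a replicate block.

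The size of the change was close between tables for the genes that moved most. PFKFB4 changed by -1.32 ± 0.032 in the Mediator, -1.15 ± 0.043 in the SOX10 and -1.28 ± 0.052 in the HDAC3 experiment. HK2 changed by -0.89, -0.94 and -0.84, PDK1 by -0.62, -0.56 and -0.64, and ALDOC by -0.76, -0.70 and -0.60. SLC16A3 rose by 0.74, 0.32 and 0.48, but the last pair of calls depended on single libraries. In the SOX10 experiment the change was 0.22 (adjusted p = 0.15) without control empty-vector replicate 3, 0.22 (adjusted p = 0.15) without MED23 knockout empty-vector replicate 1 and 0.30 (adjusted p = 0.066) without its replicate 3. In the HDAC3 experiment it was 0.37 (adjusted p = 0.062) without control replicate 2 and 0.39 (adjusted p = 0.057) without MED23 knockout replicate 2. MED23 guide 1 was used in the SOX10 experiment, so the first and second tables share a guide, and the labels give no guide for the HDAC3 table.

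**Figure D4:**
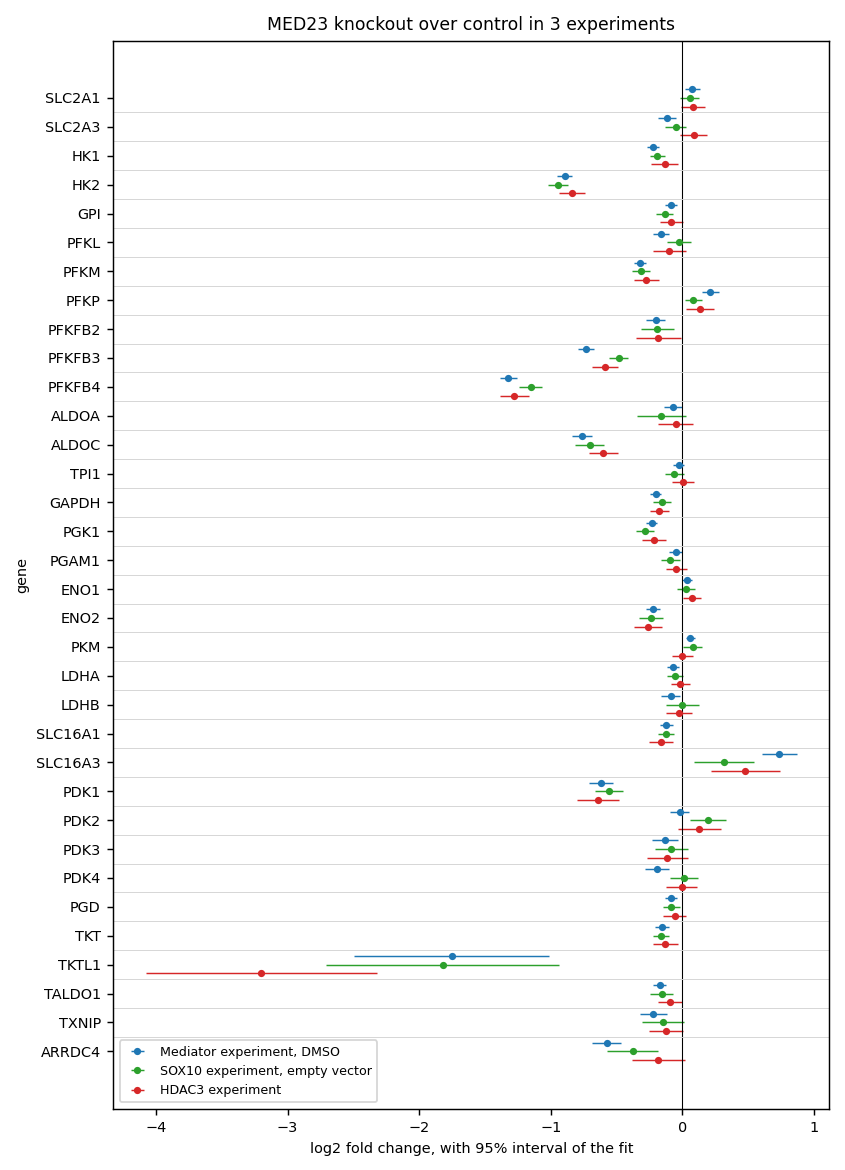
Log2 fold change of MED23 loss for each member (rows) in the Mediator experiment in DMSO, the SOX10 experiment with empty vector and the HDAC3 experiment, with the 95% interval of the fit. PFKFB4 lies between -1.32 and -1.15 and HK2 between -0.94 and -0.84 in the 3 experiments, while SLC16A3 lies to the right of 0.

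Overexpression of SOX10, a transcription factor of the melanocyte lineage, changed 20 members in MED23 knockout and 19 in control cells. SOX10 itself had 428, 436 and 423 CPM with SOX10 and 239, 248 and 251 with empty vector in MED23 knockout cells, and 589, 600 and 612 with SOX10 and 530, 531 and 514 with empty vector in control cells. The gene was thus raised by 0.80 ± 0.03 and 0.19 ± 0.03, and its level in MED23 knockout cells with SOX10 stayed below every control library with empty vector. In MED23 knockout cells 13 members rose and 7 fell, where 41.9% of all genes were called, and in control cells 13 rose and 6 fell (22.6%). The medians of the members were 0.064 and 0.044. TXNIP had 28.8, 30.4 and 29.7 CPM with SOX10 and 14.7, 14.1 and 17.9 with empty vector in MED23 knockout cells, and 29.7, 30.8 and 25.8 with SOX10 and 17.1, 18.1 and 16.7 with empty vector in control cells. Every SOX10 library was above every empty-vector library, with rises of 0.92 ± 0.07 (adjusted p = 4.2e-12) and 0.73 ± 0.07 (adjusted p = 1.3e-09). ARRDC4 had 9.15, 8.95 and 9.08 with SOX10 and 4.57, 5.17 and 4.95 with empty vector in MED23 knockout cells, a rise of 0.89 ± 0.089, and rose by 0.53 ± 0.085 in control cells. PFKFB3 rose by 0.41 ± 0.035 in MED23 knockout and 0.42 ± 0.034 in control cells.

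SLC16A3 fell with SOX10. It had 3.02, 3.34 and 3.25 CPM with SOX10 and 6.38, 5.62 and 4.88 with empty vector in control cells, without overlap (-0.81 ± 0.13, adjusted p = 1.1e-05). In MED23 knockout cells it had 5.21, 6.09 and 5.79 with SOX10 and 7.92, 5.91 and 7.21 with empty vector, where the groups overlapped (-0.30 ± 0.11, adjusted p = 0.028). That call was lost without empty-vector replicate 1 (-0.20, adjusted p = 0.19), without empty-vector replicate 3 (-0.28, adjusted p = 0.087) and without SOX10 replicate 1 (-0.24, adjusted p = 0.096). HK2 had 137, 126 and 132 CPM with SOX10 and 89.0, 85.4 and 89.5 with empty vector in MED23 knockout cells, and 211, 198 and 196 with SOX10 and 169, 167 and 172 with empty vector in control cells. It rose by 0.58 ± 0.037 and 0.25 ± 0.035, and the interaction was 0.33 ± 0.051 (adjusted p = 1.7e-05), and every MED23 knockout library with SOX10 was below every control library with empty vector. PFKFB4 rose by 0.37 ± 0.039 in control cells and changed by -0.03 ± 0.046 in MED23 knockout cells, which was not called, with an interaction of -0.40 ± 0.06 (adjusted p = 1.6e-05). With SOX10 overexpressed, MED23 loss still lowered PFKFB4 by 1.55 and 16 members in all, with 2 higher (32.4% of all genes called). Over all members, 7 interactions were positive and 5 negative, against 14.7% of all genes called. In MED23 knockout cells total-count scaling gave 13 higher and 11 lower. Summed levels were 16981 ± 746 CPM with SOX10 and 17178 ± 193 with empty vector in MED23 knockout cells (mean ± SD, n = 3). In control cells they were 17865 ± 393 with SOX10 and 18021 ± 220 with empty vector. Each difference was within the larger SD of its pair. Without GAPDH, PKM, ENO1, LDHA and ALDOA the sums were higher with SOX10. They were then 5344 ± 176 against 4967 ± 55 in MED23 knockout and 5849 ± 91.6 against 5620 ± 44.1 in control cells.

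Knockout of HDAC3, the deacetylase of the NCOR and SMRT corepressor complexes, raised members in both backgrounds. In MED23 knockout cells 20 members rose and 5 fell, where 38% of all genes were called and 19.1% were called higher. In control cells 19 rose and 6 fell, against 42.1% called and 21.2% called higher. The medians of the members were 0.169 and 0.191. Scaling by total counts gave 14 higher and 7 lower in MED23 knockout cells and 14 and 9 in control cells, with the median of all genes at -0.126 and -0.114. In control cells the rise of SLC2A1 (0.20) was 0.09 under that scaling (adjusted p = 0.11) and that of PDK1 (0.26) was 0.14 (adjusted p = 0.13), neither called. Summed levels were 19206 ± 547 CPM in the double knockout, 15671 ± 302 in the MED23 knockout, 18827 ± 142 in the HDAC3 knockout and 16417 ± 102 in control cells (mean ± SD, n = 3).

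Apart from TKTL1 with its low counts, PDK4 rose furthest of all members with HDAC3 loss in control cells and ALDOC in MED23 knockout cells. PDK4 had 43.1, 48.3 and 49.5 CPM in the double knockout, 110, 109 and 116 in the HDAC3 knockout, 30.4, 28.5 and 30.1 in the MED23 knockout and 30.6, 30.4 and 28.4 in control cells. HDAC3 loss gave 0.66 ± 0.057 in MED23 knockout cells (adjusted p = 4.6e-09) and 1.90 ± 0.057 in control cells (adjusted p = 4.3e-17), and the interaction was -1.24 ± 0.08 (adjusted p = 1.3e-10). The MED23 knockout and control libraries overlapped, while the double knockout lay between them and the HDAC3 knockout.

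PFKFB4 was moved by both losses in opposite directions. It had 45.3, 41.2 and 42.0 CPM in the double knockout, 166, 166 and 163 in the HDAC3 knockout, 29.7, 28.8 and 26.2 in the MED23 knockout and 69.5, 68.1 and 67.8 in control cells. The order was HDAC3 knockout, control, double knockout and MED23 knockout, with no overlap between neighbours. HDAC3 loss gave 0.60 ± 0.053 in MED23 knockout and 1.27 ± 0.051 in control cells, MED23 loss gave -1.95 ± 0.052 in HDAC3 knockout and -1.28 ± 0.052 in control cells, and the interaction was -0.67 ± 0.073 (adjusted p = 4.1e-07). ALDOC had 37.1, 36.1 and 35.4 CPM in the double knockout, 49.9, 50.1 and 50.2 in the HDAC3 knockout, 16.4, 17.0 and 15.6 in the MED23 knockout and 24.9, 24.7 and 24.7 in control cells. Its rises with HDAC3 loss were 1.15 ± 0.054 and 1.02 ± 0.052 (adjusted p = 1.4e-13 and 3.6e-13), and the interaction of 0.13 was not called.

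HK2 and PDK1 fell with MED23 loss and were higher in the double knockout than in the MED23 knockout. HK2 had 121, 126 and 132 CPM in the double knockout, 200, 182 and 187 in the HDAC3 knockout, 83.3, 81.9 and 82.5 in the MED23 knockout and 154, 146 and 143 in control cells. HDAC3 loss raised it by 0.62 ± 0.048 in MED23 knockout cells and 0.36 ± 0.047 in control cells, with an interaction of 0.26 ± 0.067 (adjusted p = 0.0082). PDK1 rose by 0.75 ± 0.078 in MED23 knockout cells and 0.26 ± 0.076 in control cells, with an interaction of 0.49 ± 0.11 (adjusted p = 0.002), and in the double knockout it differed from control by 0.11 ± 0.076, which was not called. The rise in control cells was 0.19 (adjusted p = 0.074) without control replicate 1 and 0.21 (adjusted p = 0.057) without HDAC3 knockout replicate 2.

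Of the transporters, SLC2A1 was highest in the double knockout. It had 303, 290 and 281 CPM in the double knockout, 217, 210 and 204 in the HDAC3 knockout, 199, 198 and 184 in the MED23 knockout and 183, 179 and 185 in control cells, and double loss gave 0.67 ± 0.044 against control (adjusted p = 5.6e-11). SLC2A3 was lower, with 33.0, 36.8 and 35.9 in the double knockout and 50.5, 52.1 and 51.0 in control cells (-0.54 ± 0.051). SLC16A3 had 6.29, 6.85 and 5.72 CPM in the double knockout, 2.93, 3.28 and 2.51 in the HDAC3 knockout, 5.62, 6.10 and 4.54 in the MED23 knockout and 4.39, 3.24 and 4.02 in control cells. The double knockout was above control (0.69 ± 0.13, adjusted p = 1.8e-04), but the fall with HDAC3 loss in control cells (-0.42 ± 0.14, adjusted p = 0.017) lost its call without control replicate 1 (-0.33, adjusted p = 0.091), control replicate 3 (-0.40, adjusted p = 0.051) or HDAC3 knockout replicate 3 (-0.33, adjusted p = 0.1).

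Among the remaining members, PGK1 rose by 0.68 ± 0.045 in MED23 knockout and 0.47 ± 0.045 in control cells, ENO2 by 0.44 and 0.62, and LDHA by 0.43 and 0.27. ARRDC4 rose by 0.39 ± 0.1 and 0.93 ± 0.096, and TXNIP by 0.56 ± 0.063 in control cells, while its change of 0.14 in MED23 knockout cells was not called. PGD changed by -0.26 and -0.38, and PFKP by -0.20 and -0.31. TKTL1 had 0.878, 0.586 and 0.928 CPM in the double knockout, 2.50, 2.13 and 2.46 in the HDAC3 knockout, 0.0714, 0.0840 and 0 in the MED23 knockout and 0.477, 0.615 and 0.427 in control cells, and its rise with HDAC3 loss in control cells was 2.22 ± 0.27 (adjusted p = 5.6e-07). The MED23 knockout libraries held so few TKTL1 counts that no fold against them is given.

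**Figure D5:**
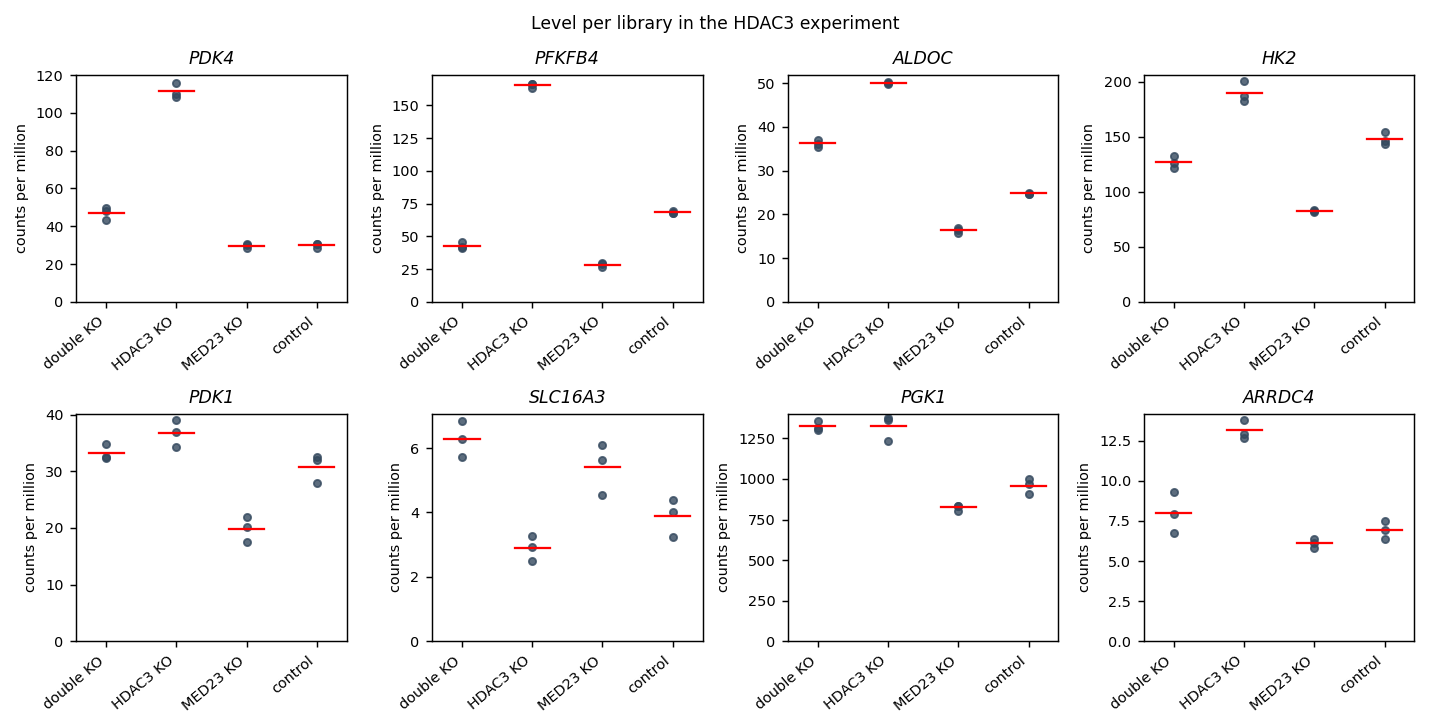
CPM in every library (points; short lines are group means) of the HDAC3 experiment for members by genotype, from the double knockout at the left to control cells at the right. PDK4 stands at 109 to 116 in the HDAC3 knockout against 28.4 to 30.6 in control cells, and PFKFB4 is highest in the HDAC3 knockout and lowest in the MED23 knockout.

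Double loss against control gave 13 higher and 9 lower members, where 36.6% of all genes were called, and MED23 loss in HDAC3 knockout cells gave 6 higher and 16 lower (35.5%). The interaction of both losses was positive for 10 and negative for 6, against 20.5% of all genes called. Genes of the HIF pathway outside glycolysis were more often higher than lower with HDAC3 loss, with 11 of 22 genes higher and 3 lower in MED23 knockout cells (38% of all genes called and 19.1% higher) and 15 higher and 2 lower in control cells (42.1% and 21.2%). The list had medians of 0.311 and 0.403, against -0.007 and 0 over all genes. CA9, a carbonic anhydrase, rose by 2.48 ± 0.18 and 2.75 ± 0.16, HIF1A, the hypoxia-inducible factor, by 0.94 ± 0.041 and 1.02 ± 0.041, and P4HA2, a collagen prolyl hydroxylase, by 1.41 ± 0.056 in control cells (adjusted p = 4.3e-15). In MED12 knockout cells in DMSO the same list was split, with 12 higher and 8 lower, where 54.9% of all genes were called. There EPAS1, which encodes HIF-2 alpha, changed by 2.02 ± 0.069 and MXI1, a MYC antagonist, by -1.67 ± 0.034 (adjusted p = 2.9e-39).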

How the data were processed

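The values are counts per gene as the authors deposited them, in 3 tables, one per experiment, which were fitted separately and never joined. The labels' protocols give RNeasy extraction, poly(A) selection and KAPA Stranded mRNA-Seq libraries. The submitters' processing notes name bcl2fastq, HISAT2, HTSeq and the build hg38. Which gene models were counted, whether by strand, and how multi-mapped reads were handled is not given in the sources used here. Columns were matched to samples by their names. In all, 15 column names differ from the sample titles, and the control columns of the HDAC3 table, named for GFP, were assigned to the control group by elimination.

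Genes were kept by edgeR's filter (minimum count 10, minimum total 15), scaled by TMM and tested with edgeR's quasi-likelihood test in 1 fit per table over all its groups, with Benjamini-Hochberg adjustment over all genes tested (R 4.3.3, edgeR 4.0.16, limma 3.58.1, DESeq2 1.42.0). The guides of a subunit were averaged with equal weight. A gene was called at an adjusted p under 0.05, and 1.5-fold counts also need that call. Levels in CPM are counts per 1000000 of the TMM-scaled library size, log2 fold changes carry their standard error (±), and levels per length use exon lengths of GENCODE 29 (58721 IDs). Promoter windows are from RefSeq on GRCh38.p14 (250 bases before to 50 after the start, 300 in all), and 31 of 34 members have one.

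The members and the 7 lists of other genes (86 genes) were chosen with earlier results of these data known. The text names all 34 members, the perturbed genes, DUSP6, and from each list up to 4 genes with the largest change among those called with a mean log2 CPM of at least 1. Genes under 30 counts over a group's 3 libraries in both groups get no fold. SAMD14, CSNK1D and SENP1 were named after their values were seen, because they overlap members. The labels give groups the same replicate numbers, and deviations of same-numbered libraries correlated with a mean r of 0.005 in the Mediator, 0.039 in the SOX10 and 0.207 in the HDAC3 experiment (genes above a log2 CPM of 2). Every pair exceeded 0.1 between the MED23 knockout and the double knockout, between the MED23 and HDAC3 knockouts, and between MED12 guide 1 with DMSO and MED12 guide 2 with vemurafenib. Of these the first alone is set side by side directly here. The second enters the interaction of HDAC3 and MED23 loss, and the third enters the drug response of MED12 knockout cells and its interaction. Counts down to 0 limit TKTL1 most. The alternatives were DESeq2 size factors, total-count scaling, no filter on low counts, DESeq2's Wald test, each guide alone, the compared groups alone, a replicate block, and each library left out in turn.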

Additional observations from a re-analysis of the deposited data

Results flagged for a closer look

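The members below responded differently in the knockouts than in control cells, by the test of the difference itself (edgeR quasi-likelihood test of the interaction, Benjamini-Hochberg adjusted over all genes), with a difference of at least 1.5-fold. Values are log2 interactions.

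Loss of MED12 made the response to vemurafenib less negative or more positive for SLC2A1 (0.822), PFKP (1.038), PFKFB3 (0.795), PGK1 (0.669), PGAM1 (0.708), ENO1 (0.9), LDHA (1.087), SLC16A1 (0.713), PDK1 (1.075) and PDK4 (1.09). TXNIP went the other way (-1.682). Loss of MED19 gave positive interactions for SLC2A1 (0.614), ALDOC (0.725), LDHA (0.637), PDK1 (0.925), PDK4 (0.59), TXNIP (0.645) and ARRDC4 (0.586), and loss of MED23 for LDHA (0.644), PDK1 (0.75) and PDK4 (0.758). These 3 comparisons share the control-guide libraries. LDHA, PDK1 and PDK4 were past this size with each subunit. In DMSO, PDK1 was lower with loss of each subunit, LDHA with loss of MED12 or MED19, and PDK4 most with loss of MED12.

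Loss of HDAC3 had a different effect in MED23 knockout than in control cells for PFKFB4 (-0.671), PDK4 (-1.241), SLC16A3 (0.634) and TKTL1 (1.632). The SLC16A3 interaction lost its call without control replicate 1 (0.54, adjusted p = 0.054), HDAC3 knockout replicate 3 (0.54, adjusted p = 0.06), MED23 knockout replicate 3 (0.53, adjusted p = 0.05) or double knockout replicate 2 (0.57, adjusted p = 0.057). The TKTL1 interaction lost it without control replicate 2, HDAC3 knockout replicate 2, MED23 knockout replicate 3, or double knockout replicate 1 or 3 (1.14 to 1.56, adjusted p = 0.054 to 0.086). The MED23 knockout libraries held 0.0714, 0.0840 and 0 CPM of TKTL1, so its interaction rests on very few counts.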

How the results depend on the processing

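Over 30 comparisons, 516 recounts of the members called under the alternatives gave 1 that moved by over 1.5 times: MED19 against MED23 loss in DMSO called 15 members with guide 2 alone and 26 with both guides, and the cause was not tested. Of 8220 alternative values for 481 single-member results, 8069 kept their call and its direction or stayed not called. A further 121 lost the call, 25 gained it, and 5 changed sign with a call in the main or the alternative fit. The signs of values called in neither fit were not compared. The lost calls fell mostly on SLC16A3, PDK2, TKTL1 and ARRDC4, and on changes under 0.2 on the log2 scale. All 5 sign changes came with total-count scaling of the vemurafenib response, which also raised the median of all genes: PFKL (0.009), PFKM (0.131) and PGD (0.061) in control-guide cells, and PFKFB4 in MED12 (0.082) and MED23 (0.143) knockout cells. The summed level of the members in control cells with SOX10 was 0.991 times that with empty vector, and 1.04 times without GAPDH, PKM, ENO1, LDHA and ALDOA. With a replicate block the members called numbered 26, against 25 without it, for HDAC3 loss in MED23 knockout cells, the direct comparison whose numbers pair the libraries. For the interaction of HDAC3 and MED23 loss, which also uses paired groups, they numbered 19 (11 higher and 8 lower) with it and 16 (10 and 6) without it. The block gave 27 against 25 for HDAC3 loss in control cells, 18 against 14 for MED23 loss in the HDAC3 experiment, and 32 in both fits for vemurafenib in control-guide cells. It moved no total of members called by over 1.5 times and lost no single-member call, but with MED23 loss in the HDAC3 experiment 3 members were higher with it and 1 without it. Another 15 values given as levels moved under the alternatives, the ratios of summed levels among them by more than the spread between replicates. As a share of total counts, the ratio of summed levels was 0.706 for vemurafenib over DMSO, 1.06 for HDAC3 knockout over control, 1.13 for the double over the MED23 knockout and 0.977 for MED23 knockout over control with empty vector. Without GAPDH, PKM, ENO1, LDHA and ALDOA, it was 0.718 for the drug and 0.884 for MED23 knockout with empty vector. With the longest transcript as length, 9 levels per length were higher by more than a fixed share of the level, among them LDHA (1506), PKM (2938) and TPI1 (1125). That limit did not use the spread between replicates, and smaller shifts beyond the SD, such as GAPDH at 6250 against 5737 ± 120, were not counted. Depth limits TKTL1 most.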
